A study of Mus musculus with 6 samples.

Results

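Jag1, Notch1, Notch2 and Rbpj are a ligand, a pair of receptors and the DNA-binding factor of the Notch pathway. They were taken by gene symbol from the platform annotation, where each had 1 probe set, so the 4 members are 4 of the 12780 genes that could be compared. They were singled out with earlier results of these arrays known. Their differences between the groups are therefore a description, given without a test. The arrays measured RNA of type 1 conventional dendritic cells (cDC1), a dendritic cell type known for presenting antigen of other cells to CD8 T cells. The 3 anti-CD40 stimulated and 3 unstimulated samples were migratory cDC1 from the skin-draining lymph nodes of wild-type C57BL/6 mice, and CD40 is the receptor through which helper T cells act on dendritic cells. All 6 samples went through the same sort for cells negative for B220, CD326 and Sirpa, positive for XCR1 and CD40, high in MHC II and intermediate in CD11c. For the age of the animals, any pooling, and the dose, duration and route of the antibody, no value is given in the sources used here. The labels call the samples biological replicates without stating that each came from separate mice, so p-values reflect the spread among these samples alone, whatever its source.

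In the Notch pathway a ligand on one cell, such as JAG1, pulls on a Notch receptor on a neighbouring cell. The receptor is then cut by ADAM metalloproteases and by gamma-secretase, and its intracellular part moves to the nucleus. There it joins RBPJ, which otherwise sits on DNA with corepressors, and with Mastermind coactivators turns on targets such as Hes and Hey genes. In dendritic cells of mice, NOTCH2 and RBPJ are known for their part in the development of a splenic cDC2 subset that carries ESAM, and Notch ligands on dendritic cells are known to act on T cells.

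The arrays were quantified as intensities on a linear scale, with array medians of 51.9 to 56.3 over all probe sets. Between arrays of the same group, Pearson's r across genes was 0.915 to 0.958. The interquartile range of log2 intensities differed between arrays. It was 2.40, 1.87 and 2.15 in stimulated replicates 1, 2 and 3, and 2.27, 1.86 and 2.02 in unstimulated replicates 1, 2 and 3. With limma, 2 of 12780 genes passed a threshold of 0.05 on the Benjamini-Hochberg adjusted p (0.0156%), and leaving out any 1 array left 0 called. Groups without overlap were found for 912 genes (7.14%), with the stimulated values higher for 470 (3.68%) and lower for 442 (3.46%). In RNA from sorted cells as a whole, fewer cells of a kind and less RNA per cell cannot be told apart.

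Defining genes of cDC1 and of migratory dendritic cells were measured for 17 of 19 listed, and intensities of different probe sets are not comparable as levels. Batf3 and Irf8, transcription factors that cDC1 need, averaged log2 intensities of 9.76 ± 0.39 and 11.64 ± 0.82 in stimulated cells and 9.35 ± 0.70 and 11.002 ± 0.84 in unstimulated cells (SD, n = 3 each). Xcr1, on which the cells were sorted, averaged 4.67 ± 0.23 in stimulated and 4.44 ± 0.20 in unstimulated cells (SD, n = 3 each). Its mean was at percentile 10.5 of all genes, and how far it lay above background is unknown. Ccr7, the receptor that brings dendritic cells to lymph nodes, averaged 12.66 ± 0.30 in stimulated and 12.51 ± 0.29 in unstimulated cells (SD, n = 3 each). The MHC class II chain gene H2-Aa averaged 12.55 ± 0.46 in stimulated and 12.55 ± 0.34 in unstimulated cells (SD, n = 3 each). Of the 17 measured, 10 had positive and 7 negative differences, and 0 were called by limma (0.0156% of all genes were). An unadjusted p under 0.05 was found for 2, against 3.49% of all genes, and both were lower on stimulated arrays. These were Cd24a, a surface marker of cDC1, with a log2 difference of -0.48, and Cd74, the invariant chain gene, with -0.78. The groups did not overlap for Cadm1 (0.36) and H2-Ab1 (0.40), higher, and Cd24a, lower, of these 17, beside 7.14% of all genes.

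The promoters of Jag1 and Rbpj are shown because these members had the largest differences, in opposite directions. Each is the 250 bases before the annotated transcription start on the gene's own strand, from RefSeq (GRCm38.p6). Jag1 is at chr2:137116521-137116770 on the minus strand, and the upstream of the 2 annotated Rbpj starts is at chr5:53590096-53590345 on the plus strand. Capitals mark the core of the RBPJ binding motif, TGGGAA, on either strand.
Jag1: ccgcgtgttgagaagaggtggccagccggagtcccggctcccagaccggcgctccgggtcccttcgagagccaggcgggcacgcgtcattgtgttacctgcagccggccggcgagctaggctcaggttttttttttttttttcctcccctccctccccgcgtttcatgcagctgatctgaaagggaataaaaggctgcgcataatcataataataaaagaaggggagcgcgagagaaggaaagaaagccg
Rbpj: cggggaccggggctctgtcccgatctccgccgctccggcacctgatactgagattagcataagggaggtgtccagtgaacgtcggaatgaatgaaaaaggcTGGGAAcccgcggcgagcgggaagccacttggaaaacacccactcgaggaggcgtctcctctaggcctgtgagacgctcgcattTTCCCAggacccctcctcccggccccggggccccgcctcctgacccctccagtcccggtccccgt

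The Rbpj window held the RBPJ core at 2 places, positions -149 to -144 on the plus strand and -65 to -60 on the minus strand, counted from the transcription start. The Jag1, Notch1 and Notch2 windows held it at 0 places. Of 32851 promoter windows of the same length, 21.6% held this core, searched on both strands. The consensus of kappaB motifs, bound by the NF-kB factors that CD40 activates, was held by 7.25% of all windows. Among the 4 members it was found in the Notch2 window alone, at positions -112 to -103, where the same letters match on both strands and do not overlap an RBPJ core. A match in letters is no evidence of binding, and motifs outside these windows were not searched.

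Jag1 encodes a membrane-bound Notch ligand and was the ligand with the largest difference. Its intensity was 724, 155 and 276 in stimulated replicates 1, 2 and 3, against 109, 25.2 and 71.2 in unstimulated replicates 1, 2 and 3. Every stimulated array was above every unstimulated one, although the lowest stimulated value, in replicate 2, was not far above the highest unstimulated value, in replicate 1. On the log2 scale Jag1 averaged 8.29 ± 1.12 in stimulated and 5.86 ± 1.08 in unstimulated cells (SD, n = 3 each). The log2 difference was 2.44 ± 0.69 (SE), which is 5.41-fold with a 95% interval of 1.77 to 16.5. Only 4 of 12780 genes had a larger positive difference. The spread within groups was also wide: stimulated arrays ranged over 4.68-fold and unstimulated arrays over 4.31-fold. The pooled SD of Jag1 was 1.11 on the log2 scale, against a median of 0.28 over all genes, and 65 genes had a larger one. The log2 difference was 1.83 without stimulated replicate 1 and 2.95 without stimulated replicate 2.

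**Figure D1:**
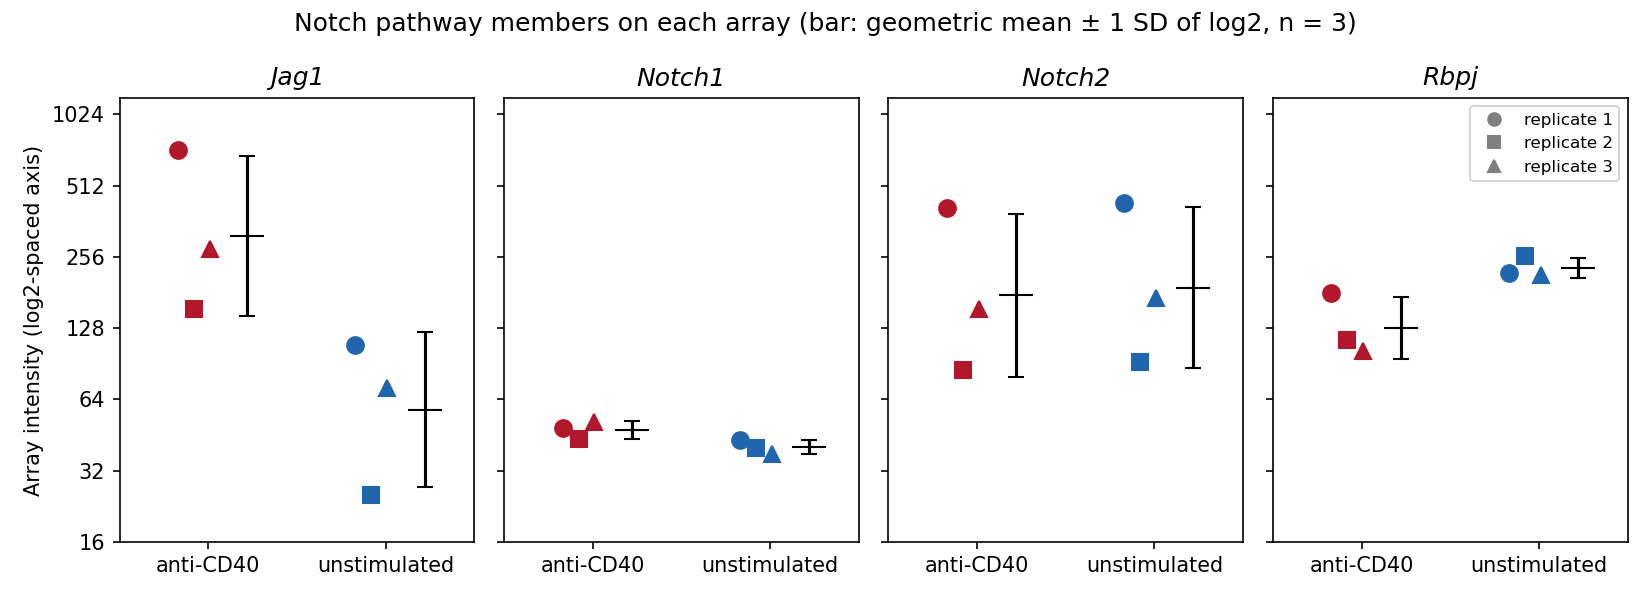
Array intensity of the 4 members on a log2-spaced axis, with anti-CD40 stimulated samples (red) left of unstimulated samples (blue) in each panel, symbols for replicate numbers, and black bars for the geometric mean ± 1 SD of log2 values (n = 3). Jag1 lies higher on all stimulated arrays (155 to 724, against 25.2 to 109) and Rbpj lower (103 to 180, against 215 to 258), while Notch2 overlaps and Notch1 spans 37.6 to 51.2 on all 6 arrays.

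Notch2, a receptor of Jagged and Delta-like ligands, differed little between the groups and widely within them. Its intensity was 413, 85.3 and 154 in stimulated replicates 1, 2 and 3, against 433, 91.9 and 171 in unstimulated replicates 1, 2 and 3. The groups overlapped over nearly their whole range, and in both groups the array numbered 1 was the highest and the array numbered 2 the lowest. Its log2 mean was 7.46 ± 1.15 in stimulated and 7.57 ± 1.13 in unstimulated cells (SD, n = 3 each), a log2 difference of -0.11 ± 0.71 (SE). As a ratio that is 0.927, with a 95% interval from 0.294 to 2.92, so differences of more than 2-fold in either direction lie inside the interval. The sign turned when 1 of certain arrays was left out, with a log2 difference of 0.41 without stimulated replicate 2 and 0.49 without unstimulated replicate 1. Without stimulated replicate 1 it was -0.73. The pooled SD of 1.14 was exceeded by 53 genes.

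Notch1, the receptor that T cell precursors need for their commitment, had similar intensities on all arrays. They were 48.7, 43.3 and 51.2 in stimulated replicates 1, 2 and 3, against 43.0, 39.9 and 37.6 in unstimulated replicates 1, 2 and 3. The groups did not overlap, but the lowest stimulated and the highest unstimulated value were close together. Its log2 mean was 5.57 ± 0.12 in stimulated and 5.33 ± 0.10 in unstimulated cells (SD, n = 3 each). The log2 difference was 0.25 ± 0.16 (SE), or 1.19-fold with a 95% interval of 0.915 to 1.54. Background intensity was not analysed here, so how far above it Notch1 lay is unknown. In contrast to Jag1 and Notch2, its pooled SD was 0.11, and 906 genes had a smaller one.

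Rbpj encodes the DNA-binding factor on which signals of all Notch receptors converge. It was lower on the stimulated arrays, with intensities of 180, 114 and 103 in stimulated replicates 1, 2 and 3, against 220, 258 and 215 in unstimulated replicates 1, 2 and 3. The groups did not overlap, and stimulated replicate 1 was the nearest to the unstimulated arrays. Rbpj averaged 7.002 ± 0.43 in stimulated and 7.85 ± 0.14 in unstimulated cells on the log2 scale (SD, n = 3 each). The log2 difference was -0.84 ± 0.24 (SE), or 0.557-fold with a 95% interval of 0.375 to 0.826, and 64 of 12780 genes had a lower one. It was -1.09 without stimulated replicate 1 and -0.68 without stimulated replicate 3. RefSeq lists 3 Rbpj pseudogenes in the mouse. The probe sequences were not used here, so signal from these copies was not separated from that of Rbpj.

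Of the 4 members, 0 were among the genes called by limma (0.0156% of all genes were), and 2, Jag1 and Rbpj, had an unadjusted p under 0.05, as did 3.49% of all genes. Jag1 was called with the interquartile range of the arrays as a covariate and with a block for the replicate number, and 0 members were called in the other settings. The groups did not overlap for 3 members, Jag1 and Notch1 with higher and Rbpj with lower stimulated values, beside 7.14% of all genes. Nothing is read from these calls and counts, because the members were chosen with this contrast known.

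The members differed from each other in how they followed the arrays. Jag1 and Notch2 had the same order inside both groups, with the array numbered 1 highest, number 3 between and number 2 lowest. This is also the order of the interquartile ranges of the arrays within each group. The same order in both groups was found for 13.6% of all genes (1743 of 12780) and for 10 of 69 other measured Notch pathway genes. Rbpj and Notch1 did not have it: Rbpj was highest on the array numbered 1 in stimulated cells and on the array numbered 2 in unstimulated cells. With the interquartile range as a covariate, the log2 difference was 2.03 for Jag1, -0.54 for Notch2, 0.22 for Notch1 and -0.90 for Rbpj. The part of array spread in the levels of Jag1 and Notch2 was not tested.

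**Figure D2:**
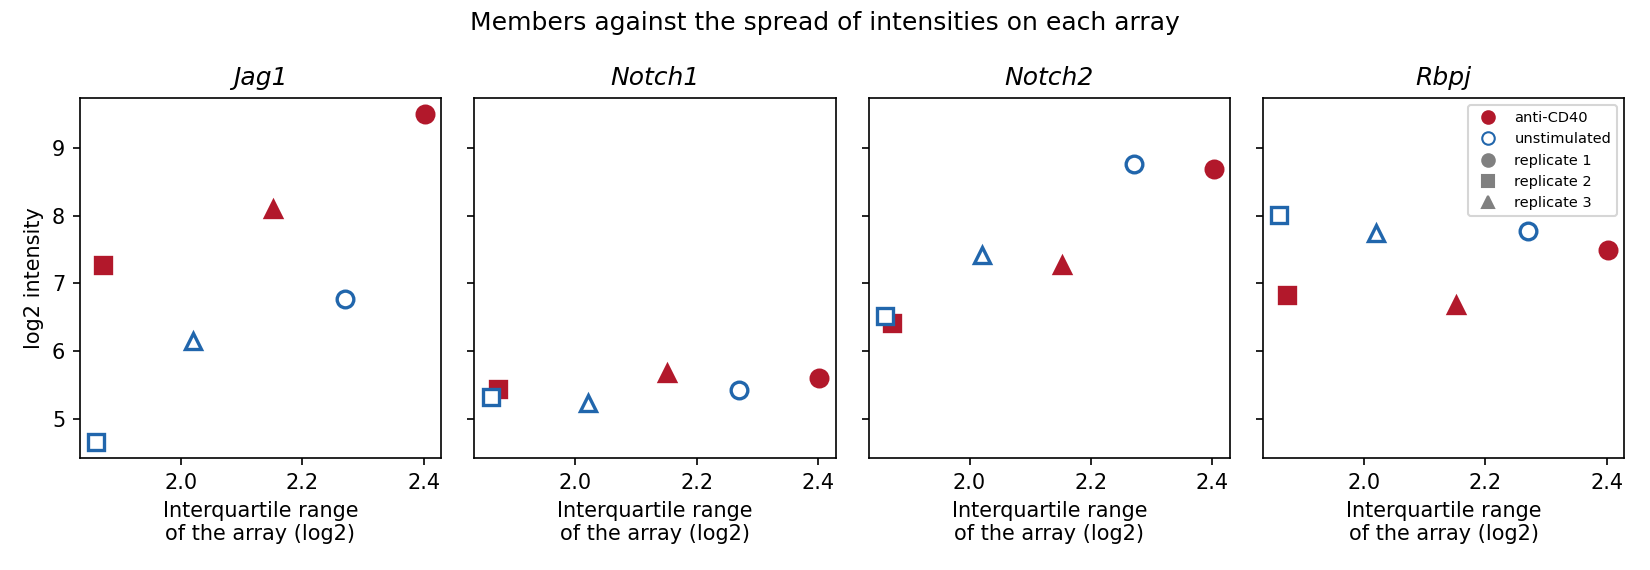
log2 intensity of each member (vertical axis) against the interquartile range of all log2 intensities on the same array (horizontal axis), with filled red symbols for anti-CD40 stimulated and open blue symbols for unstimulated arrays and a symbol for each replicate number. Notch2 is highest on the arrays with the widest range, 2.40 and 2.27, in both groups, and Jag1 has that order inside each group with the stimulated arrays above the unstimulated ones.

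The genes most alike to each member were found by Pearson's r of log2 intensities over the 6 arrays, leaving out predicted genes. These are descriptions over few arrays that share the groups and the array spread. For Jag1 the closest were Arf2, a small GTPase of vesicle traffic (r = 0.995), Eprs, a tRNA synthetase (0.995), and Slc49a4 (0.992), and 47 genes reached 0.95. For Notch2 they were Abhd2 (0.998), the growth kinase gene Mtor (0.998) and Ankrd11 (0.997), with 322 genes at 0.95 or more. For Notch1 they were Il2rb, the IL-2 receptor beta chain (0.991), Snw1, a splicing factor that also binds RBPJ (0.989), and Gins2 (0.987), with 25 genes. For Rbpj they were Mllt10 (0.985), Ythdf3 (0.983) and Prkar2a, a regulatory subunit of protein kinase A (0.981), with 17 genes. Many more genes were thus close to Notch2 than to the other members.

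After the mean of each group was subtracted, the likeness concerned only the spread within groups. The closest to Notch2 were then Vcl, which encodes vinculin (0.9996), and 2 pathway genes, Ncstn (0.9996), the gamma-secretase subunit nicastrin, and Numbl (0.9994), a relative of the Notch antagonist NUMB. At this setting 765 genes reached 0.95 with Notch2 and 505 with Jag1, whose closest were Vps13d (0.9995), Vps53 (0.9992) and Sri (0.999). Notch1 was closest to Sertad3 (0.997), Cc2d1a (0.997) and Elp5 (0.993), and Rbpj to Ppp1r12a (0.998), Apol10b (0.993) and Appbp2 (0.989). There were 120 genes at 0.95 or more for Notch1 and 38 for Rbpj.

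Beyond the members, 82 further genes were listed by role in the pathway, and 69 of them were measured. The list holds Kyat1, which is not a gene of the pathway but is included in the counts and medians given here. With limma 0 of the 69 were called higher and 0 lower, where 0.0156% of all genes were called, and 2 had an unadjusted p under 0.05, where 3.49% of all genes did. Their median log2 difference was 0.04, against 0.005 over all genes, and single genes lay between -0.50 and 0.72. Differences were above 0 for 44 and below 0 for 25, while 51% of all genes had a difference above 0. The groups did not overlap for 2 with higher and 1 with lower stimulated values, while 3.68% of all genes were higher and 3.46% lower in this way. Across 18 other settings 0 were called in each, and the smallest adjusted p was 0.0733, for Snw1 with array weights.

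**Figure D3:**
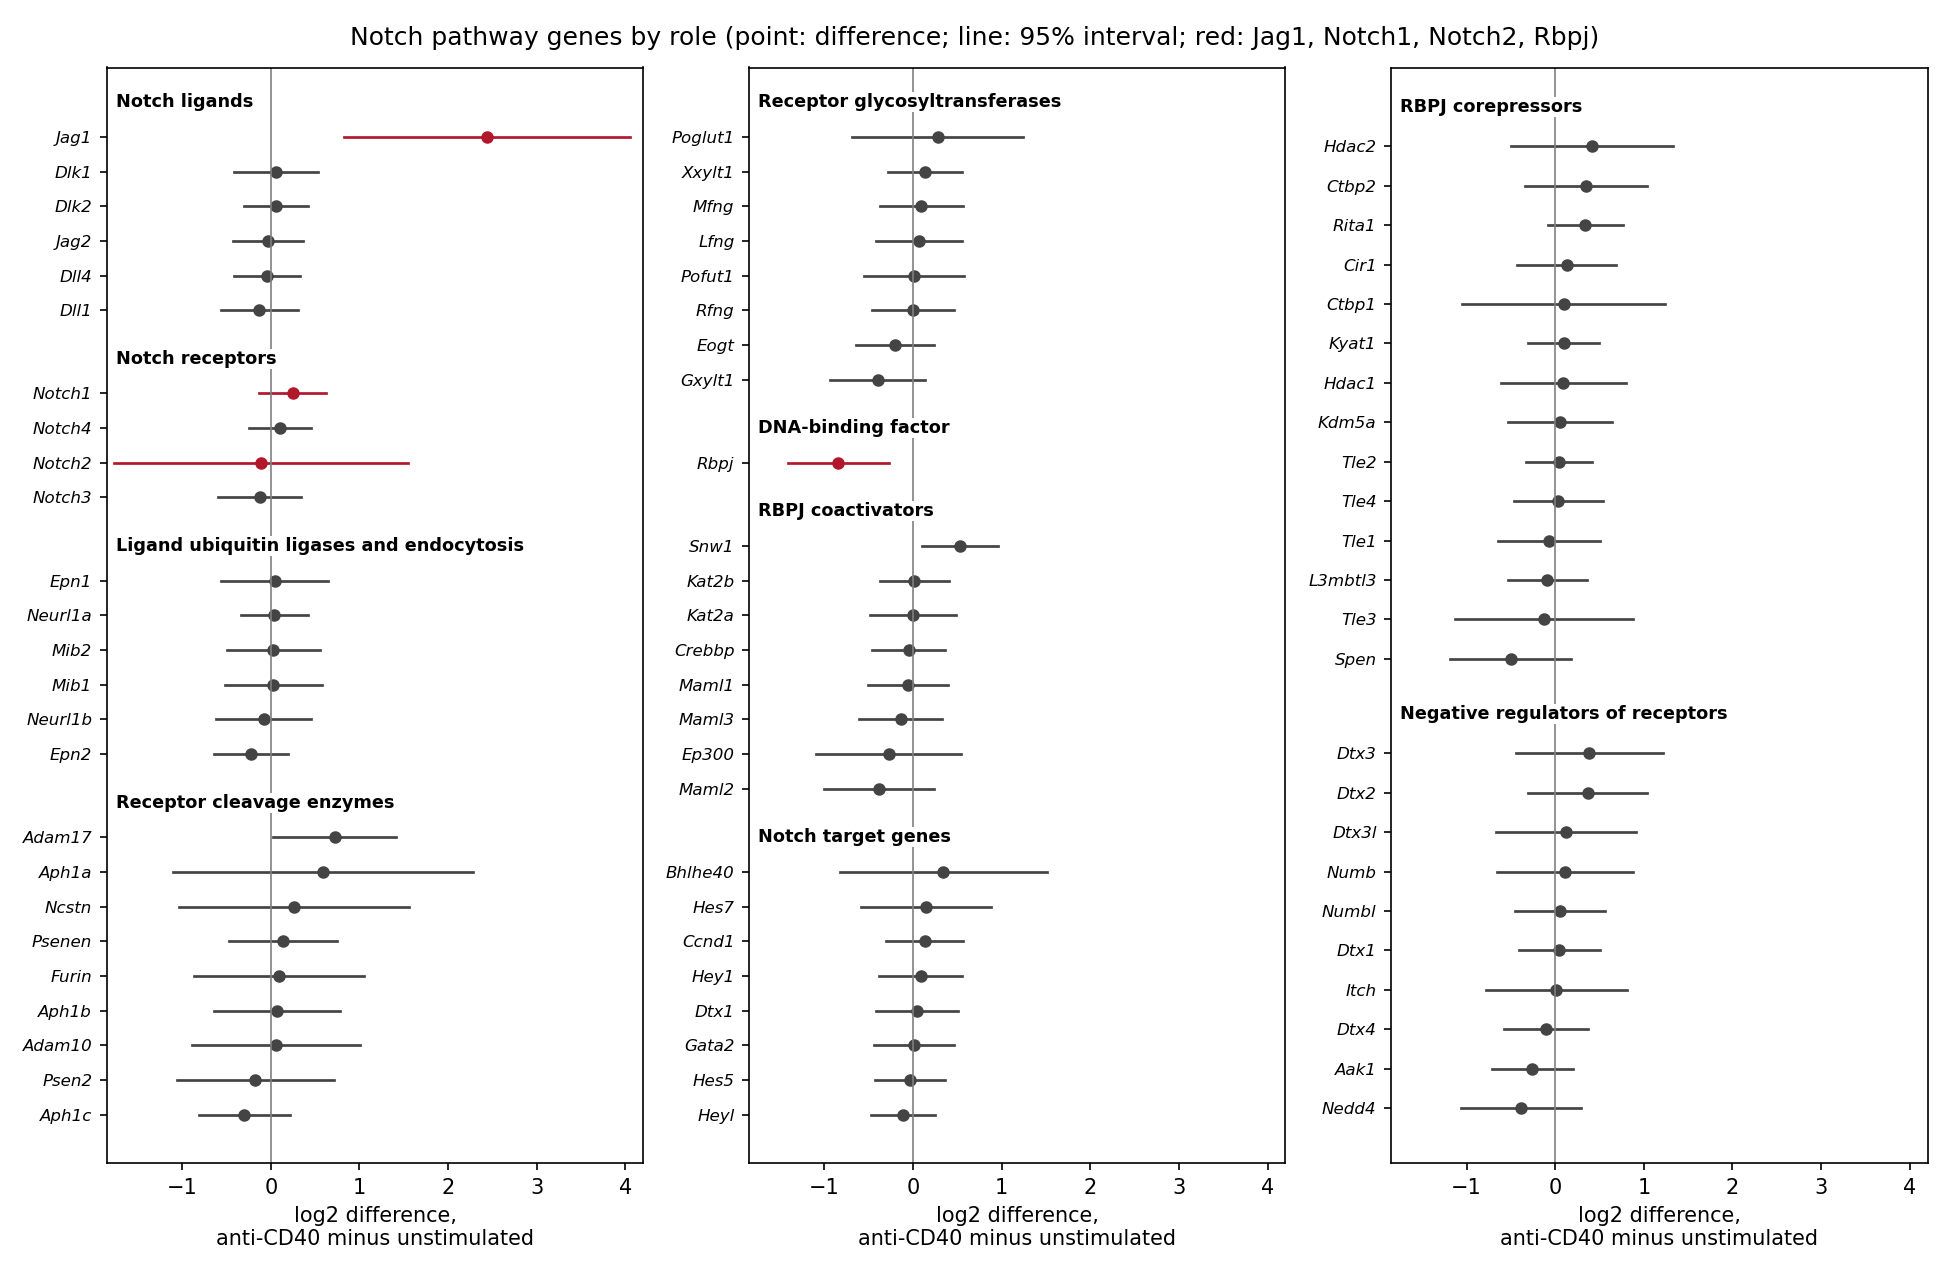
log2 difference (anti-CD40 stimulated minus unstimulated, horizontal axis) of the members (red) and of the other measured Notch pathway genes (grey), grouped by role, with lines for the 95% interval from limma. Kyat1, drawn with the corepressors, is not a gene of the pathway. Jag1 at 2.44 stands to the right of the other genes shown, Rbpj at -0.84 to the left, and the other genes except Adam17 and Snw1 have intervals that hold 0, as do those of Notch1 and Notch2.

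Among the other ligands 5 of 6 were measured, with a median log2 difference of -0.04. Jag2, the closest relative of Jag1, had intensities of 24.5, 25.6 and 24.1 in stimulated replicates 1, 2 and 3, against 22.1, 25.7 and 28.8 in unstimulated ones. The groups overlapped, and the log2 difference was -0.04 with a 95% interval of -0.43 to 0.36. The Delta-like ligand genes Dll1 and Dll4 differed by -0.13 (95% interval -0.57 to 0.31) and -0.05 (-0.41 to 0.32). The means of Dll1, Jag2 and Dll4 were at percentiles 8.31, 14.1 and 15.4 of all genes. How far they lay above background is unknown, so their small differences do not show that expressed ligands stayed level. Dlk1 and Dlk2, which encode Delta-like proteins without the domain that classical ligands use to engage receptors, both differed by 0.06. The intervals of these 5 genes lay below 1 on the log2 scale at their upper end. The difference between Jag1 and these ligands was not tested.

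The remaining receptors, Notch3 and Notch4, known from vascular smooth muscle and endothelium, had overlapping groups and 95% intervals that held 0. Notch3 had intensities of 39.0, 58.6 and 54.4 on stimulated arrays, against 53.4, 55.5 and 54.6 on unstimulated arrays, and the groups overlapped. Its log2 difference was -0.13 (95% interval -0.59 to 0.34). That of Notch4 was 0.10 (-0.25 to 0.45).

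Ubiquitin ligases such as those encoded by Mib1 and Neurl1b, together with epsins, drive the uptake of ligands into the sending cell, the pull that opens the receptor. All 6 listed genes of this role were measured, with a median log2 difference of 0.03. Mib1 differed by 0.03, Neurl1b by -0.08 and the epsin gene Epn1 by 0.04. Epn2, with -0.22 (95% interval -0.64 to 0.20), had the largest difference in size.

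Of the enzymes that cut the receptor, 9 of 10 were measured, with a median of 0.10. Adam17, a metalloprotease that also sheds TNF, was singled out after its values were seen. Its intensity was 83.3, 105 and 58.3 in stimulated replicates 1, 2 and 3, against 66.5, 45.3 and 38.0 in unstimulated ones. The groups overlapped, because stimulated replicate 3 lay below unstimulated replicate 1. The log2 difference of 0.72 ± 0.29 (SE) was not called (limma adjusted p = 0.999975, unadjusted p 0.0430). Its relative Adam10, the main protease of ligand-bound receptors, differed by 0.06 (95% interval -0.89 to 1.01). Of gamma-secretase, Psenen differed by 0.13, Ncstn by 0.26 and Aph1c by -0.30. Aph1c has a close copy, Aph1b (0.07), and their signals may not be fully separate.

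Sugars added to the receptor tune which ligands it answers, and 8 of 9 glycosyltransferase genes were measured, with a median of 0.04. The Fringe genes Lfng, Mfng and Rfng differed by 0.07, 0.10 and 0.002. Eogt, which adds N-acetylglucosamine to the receptor, was the gene of this role whose groups did not overlap. Its intensities were 19.5, 18.5 and 19.4 on stimulated arrays, against 27.4, 19.97 and 19.5 on unstimulated arrays. They nearly touched, and the log2 difference of -0.20 (95% interval -0.65 to 0.24) was not called. The mean of Eogt was at percentile 2.63 of all genes, and how far it lay above background is unknown.

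Of 8 genes for coactivators of RBPJ, all were measured, with a median of -0.05. Snw1, which encodes SKIP, a splicing factor that binds RBPJ and the Notch intracellular domain, had intensities of 200.2, 164 and 223 in stimulated replicates 1, 2 and 3. Its unstimulated values were 147, 135 and 123 in replicates 1, 2 and 3, all below the stimulated ones. The log2 difference was 0.53 ± 0.18 (SE), which was not called (limma adjusted p = 0.999975, unadjusted p 0.0223). The Mastermind genes Maml1, Maml2 and Maml3 differed by -0.06, -0.38 and -0.14, and the acetyltransferase genes Ep300 and Crebbp by -0.27 and -0.05. All 5 of these had intervals that held 0.

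Of 17 genes listed as corepressors that hold RBPJ targets off, 14 were measured, with a median of 0.07. Kyat1, which is not a gene of the pathway, is counted among these 14. Rita1, which encodes a protein that exports RBPJ from the nucleus, had intensities of 32.2, 41.1 and 42.4 on stimulated arrays, against 27.6, 31.2 and 31.95 on unstimulated arrays. The groups did not overlap by a narrow margin, and the log2 difference of 0.34 (95% interval -0.08 to 0.76) was not called. Spen, the corepressor that bridges RBPJ to histone deacetylases, differed by -0.50 (95% interval -1.18 to 0.18), the lowest value among the 69 genes.

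Among genes listed as negative regulators of the receptors, 10 of 12 were measured, with a median of 0.05. Whether each listed gene acts against the receptors was not examined. Numb, the endocytic antagonist, differed by 0.11, and the ubiquitin ligase genes Itch and Nedd4 by 0.01 and -0.39. Aak1, a kinase of clathrin-coated vesicles that was in the same list, differed by -0.26. These intervals held 0.

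Target genes were measured for 8 of 14 listed, with a median of 0.07. Hes1, Hey2, Nrarp and Myc were among those not analysed here. Hes5 had intensities of 48.5, 61.1 and 50.7 in stimulated replicates 1, 2 and 3, against 50.6, 57.4 and 55.2 in unstimulated ones, and the groups overlapped. The repressor genes Hes5, Hes7, Hey1 and Heyl differed by -0.03, 0.15, 0.09 and -0.11 on the log2 scale. Their 95% intervals ran from -0.59 at the lowest to 0.89 at the highest, both for Hes7. The means of Hey1 and Heyl were at percentiles 28.6 and 24.8 of all genes, and how far they lay above background is unknown. Whether the pathway was active in these cells was not tested. Dtx1, which encodes the Notch regulator Deltex and is itself a target, differed by 0.05 (95% interval -0.41 to 0.50). Bhlhe40, a transcription factor gene expressed widely in activated leukocytes, had intensities of 1016, 263 and 566 on stimulated arrays, against 630.1, 318 and 372 on unstimulated arrays. It overlapped between groups, its arrays had the same order as those of Jag1 in both groups, and it differed by 0.34 (95% interval -0.82 to 1.51).

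Esam, the 1 gene measured of 3 surface markers of the Notch2-dependent cDC2 subset, had intensities of 62.7, 37.9 and 38.1 in stimulated replicates 1, 2 and 3. In unstimulated replicates 1, 2 and 3 they were 46.2, 21.1 and 20.7, so the groups overlapped through unstimulated replicate 1. The log2 difference was 0.72 ± 0.37 (SE) and was not called (limma adjusted p = 0.999975, unadjusted p 0.0872).

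Jag1 and Notch receptors are also expressed by endothelium and stroma, so markers of other cells were set beside them. Of 17 endothelial and fibroblast markers 8 were measured, and their summed intensity was 244 to 337 on stimulated and 280.0 to 328 on unstimulated arrays. The highest means were those of the collagen genes Col1a1 and Col1a2, which differed by -0.09 and -0.15. The endothelial gene Pecam1 averaged 3.998 in stimulated and 4.33 in unstimulated cells on the log2 scale. For cDC2 markers (5 of 10 measured) the sum was 154 to 214 on stimulated and 126 to 150 on unstimulated arrays, without overlap. Irf4 and Esam had the highest means, and the groups of both overlapped. The means of Klf4, Zeb2 and Sirpa were at percentiles 9.15, 9.62 and 18.0 of all genes. How far these genes, and so the sum, lay above background is unknown. Sirpa, against which all cells were sorted, was the 1 cDC2 marker without overlap, at 28.0, 30.2 and 27.0 on stimulated and 26.0, 24.9 and 25.7 on unstimulated arrays, a log2 difference of 0.15 (95% interval -0.20 to 0.51). Of these 5 markers 0 were called, and their part in the differences of the members was not tested. Sums for T cell markers (7 of 10, highest for Cd5 and Cd3e) were 206 to 358 on stimulated and 196 to 286 on unstimulated arrays. For B cell markers (4 of 8, highest for Ighm and Pax5) they were 114 to 177 on stimulated and 119 to 196 on unstimulated arrays. For keratinocyte and Langerhans cell markers (4 of 6, highest for Cd207 and Epcam) they were 118 to 141 on stimulated and 107 to 125 on unstimulated arrays. These sums overlapped between the groups. For plasmacytoid dendritic cell markers (5 of 6, highest for Bst2 and Tcf4) they were 480.2 to 722 on stimulated and 493 to 606 on unstimulated arrays. Of 12 monocyte and macrophage markers only Csf1r was measured, at 20.9 to 29.0 on stimulated and 23.3 to 29.5 on unstimulated arrays. Besides Sirpa, the groups did not overlap for Epcam and Cd3e, with higher, and Acta2 and Bcl11b, with lower stimulated values. Over all genes, 7.14% had groups without overlap. Of all marker genes in this paragraph 0 were called (limma, with Epcam alone under an unadjusted p of 0.05). Epcam encodes CD326, against which all cells were also sorted. Its intensity was 41.2, 45.4 and 33.3 in stimulated replicates 1, 2 and 3, against 26.2, 24.2 and 29.9 in unstimulated ones. The log2 difference of Epcam was 0.57 (95% interval 0.13 to 1.01), and its part in the differences of the members was not tested.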

How the data were processed

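RNA of sorted migratory cDC1 was measured on 1-colour Affymetrix arrays, 3 anti-CD40 stimulated and 3 unstimulated. The intensities were made by the authors with RMA in Affymetrix Expression Console, per the submitters' processing notes, with versions not given in the sources used here. Deposited intensities of 17551 probe sets run from 6.97 to 13701, so they are linear, and log2 was taken before the fit. Of these, 13963 probe sets had 1 gene symbol in the platform annotation, 970 had several and 2618 had none. The probe set with the highest mean stood for a gene with several, which left 12780 genes.

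In R 4.3.3, limma 3.58.1 (lmFit, eBayes, defaults, no covariate) compared stimulated with unstimulated arrays, two-sided, with Benjamini-Hochberg adjustment over all genes and calls under 0.05. The procedure was tested on simulated data. The number of arrays limits the precision. The members, gene lists and settings were chosen with earlier results of these data known. Named genes were the members, all measured ligands, receptors and Hes or Hey genes, pathway list genes whose groups do not overlap or else the 2 with the highest mean, the 2 with the highest mean of each marker list, and the 3 genes most alike to each member by each measure. Mib1, Epn2, Adam10, Adam17, Ncstn, Aph1b, the Fringe, Mastermind and acetyltransferase genes, Spen, Numb, Itch, Pecam1, Sirpa, the cDC1 genes other than Ccr7 and H2-Aa and other genes outside that rule were chosen after their values were seen. Promoters came from RefSeq tables. Alternatives are given in the closing section. Plots used Python 3.11.15 and matplotlib 3.10.9.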

Additional observations from a re-analysis of the deposited data

How the results depend on the processing

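Jag1, Notch1 and Rbpj kept their sign in all 18 alternatives. Log2 differences ran from 1.83 to 2.95 for Jag1, 0.15 to 0.38 for Notch1 and -1.12 to -0.68 for Rbpj. That of Notch2 ran from -0.73 to 0.49 and kept its sign in 16 of 18. Leaving out 1 array at a time gave 1.83 to 2.95 for Jag1, 0.20 to 0.32 for Notch1, -0.73 to 0.49 for Notch2, -1.09 to -0.68 for Rbpj and -0.06 to 0.08 for the median of the other pathway genes. With array weights the difference of Notch1 was 0.38, and the cause was not tested. Over all genes, 2 were called higher and 0 lower. Array weights gave 28 higher and 18 lower, the array interquartile range as a covariate 11 higher and 4 lower, and quantile normalisation once more 1 lower. Leaving out any 1 array gave 0 higher (from 0 to 0), and leaving out both arrays numbered 1, 2 or 3 gave 0 each, where fewer arrays are fitted. With the replicate block 30 were higher and 8 lower, and Jag1 was the 1 of the 4 members among them, as with the interquartile range. Its 95% interval on the log2 scale was then 1.99 to 2.88 and 1.47 to 2.58, against 0.83 to 4.05 without either term, and this is a description, as Jag1 was chosen with this contrast known. As further descriptions, the interval of Notch2 was -0.96 to -0.12 with the interquartile range, and that of Notch1 0.10 to 0.65 with array weights. That of Rbpj held 0 without both arrays numbered 2 (-1.46 to 0.10) or 3 (-1.57 to 0.10). The replicate numbers are not stated to mark a shared animal or batch. Deviations from the group means of arrays with the same number correlated at 0.73, 0.59 and 0.06 across genes for numbers 1, 2 and 3. Deviations of 3 arrays from their own mean depend on each other, so these values cannot decide whether the numbers mark pairs. The main fit did not take the numbers as pairs. Each stimulated array still correlated best with the unstimulated array of its own number, a hint from the data and not from the design. For number 3 this was 0.06, against -0.013 for the higher of the others. The best match of each unstimulated array was not examined. Signal over background was not analysed here and limits the dim genes, Notch1 among them.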
